A study of Mus musculus with 15 samples.

Results

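The inflammatory and IL-6 family cytokine genes described here are Il1a, Il1b, Il1rn, Tnf, Il6, Osm, Lif, Il10, Il12b and Il23a, 10 of the 55385 genes in the count table. They were listed by name, with earlier results of these data known, and each was found in the table through its Ensembl identifier. Gene expression was measured by RNA-seq in bone marrow-derived macrophages (BMDMs) of BALB/c mice, labelled as 6 weeks old, and the question addressed was which part of the macrophage response to tumor-derived factors and to granulocyte-macrophage colony-stimulating factor (GM-CSF) depends on the transcription factor STAT5. The control mice carried floxed Stat5 alleles (STAT5 fl/fl, 2 mice). In the STAT5 cKO mice (3 mice) the same alleles were deleted by Csf1r-iCre, a Cre driven by the promoter of the receptor for macrophage colony-stimulating factor, which is active in macrophages and other myeloid cells. A further STAT5 fl/fl replicate had been removed by the study after quality control. The BMDMs of every mouse were held for 2 h in serum-free DMEM, in 20 ng/mL recombinant mouse GM-CSF (rmGM-CSF) or in 4T1 CM, which is the culture medium of serum-starved 4T1 cells, a mouse mammary tumor line. This gave 15 libraries in 6 groups, with 2 libraries in each STAT5 fl/fl group and 3 in each STAT5 cKO group.

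IL-1α and IL-1β are cytokines that act through the same receptor, IL-1R1, to drive fever, neutrophil recruitment and further cytokine production. The antagonist encoded by Il1rn binds that receptor without signalling. TNF is made by activated macrophages as a membrane protein that is shed by the protease ADAM17. IL-6, oncostatin M (Osm) and leukemia inhibitory factor (Lif) bind receptors that share the subunit gp130 and signal mainly through STAT3. IL-10 restrains macrophage activation, also through STAT3, while Il12b encodes the p40 subunit shared by IL-12 and IL-23 and Il23a the p19 subunit of IL-23. GM-CSF signals through JAK2 and STAT5, and resting macrophages hold little RNA of most of these cytokines until they are stimulated.

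Library totals lay between 16016736 and 22883108 counts, so that the floor of detection, taken as 3 counts, corresponded to 0.131 to 0.187 CPM, which are counts scaled to a common library total, and this limit takes in no error but that of counting. The genotype labels were checked on the deleted genes. Stat5a had 637 to 918 counts in the STAT5 fl/fl libraries and 0 to 3 in the STAT5 cKO libraries, and Stat5b had 977 to 1654 and 0 to 4. Cish, a known STAT5 target, stood at 148 ± 2.29 CPM (SD, n = 2) in STAT5 fl/fl macrophages with rmGM-CSF and at 2.29 ± 0.327 CPM (SD, n = 3) in STAT5 cKO macrophages. The 6 macrophage markers checked, which include Csf1r, Adgre1 and Cd68, summed to 6603 to 8213 CPM in every library. The T cell, B cell, NK cell, epithelial and erythroid lists summed to at most 0.236 CPM, the neutrophil list to 0.230 to 2.36 CPM and the dendritic cell list to 0.506 to 3.86 CPM. Pairs of replicates differed by more than sampling noise in every group, so no library was a copy of another. Their difference was measured as chi-square over genes per degree of freedom, where 1 is sampling noise only. This measure was unequal, at 5.67 to 15.1 with DMEM, 4.49 to 5.99 with rmGM-CSF and 11.3 to 24.3 with 4T1 CM.

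Of the 10 cytokine genes, 6 entered the test and 4 did not reach its filter, a CPM over 1 in at least 2 libraries. Il1b, Il1rn, Tnf and Osm were over 1 CPM in all 15 libraries. Il1a was over 1 CPM only in the 10 stimulated libraries, and Il10 only in the 3 STAT5 cKO libraries with 4T1 CM. A gene that entered through the group in which it was high had to differ from the others, which holds for the treatment effects on Il1a and for the effects of genotype and treatment on Il10. Il6, Lif, Il12b and Il23a lay near the floor of detection. Their highest counts in any library were 19, 15, 7 and 2, and 7, 9, 12 and 15 of the 15 libraries, respectively, were at or under 3 counts.

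Il1a, Il1b and Tnf had the highest fold changes of the tested cytokine genes with rmGM-CSF, and the 250 bases before their start sites are shown because all 3 hold the TATA motif TATAAA between 24 and 32 bases before the start. Il1a (ENSMUSG00000027399) and Il1b (ENSMUSG00000027398) are neighbouring genes on the reverse strand of chromosome 2, and Tnf (ENSMUSG00000024401) lies on the reverse strand of chromosome 17. The sequences are from RefSeq, build GRCm38.p6, at chr2:129309973-129310222, chr2:129371140-129371389 and chr17:35202008-35202257, each read on the strand of its gene and ending at the last base before the start. Capitals mark TATAAA and, in Il1a, also TGACTCA.
Il1a: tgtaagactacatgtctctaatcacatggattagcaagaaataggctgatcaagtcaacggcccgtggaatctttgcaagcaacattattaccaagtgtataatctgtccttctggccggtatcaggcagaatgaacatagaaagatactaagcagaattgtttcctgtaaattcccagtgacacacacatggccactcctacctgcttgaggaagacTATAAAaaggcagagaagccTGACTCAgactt
Il1b: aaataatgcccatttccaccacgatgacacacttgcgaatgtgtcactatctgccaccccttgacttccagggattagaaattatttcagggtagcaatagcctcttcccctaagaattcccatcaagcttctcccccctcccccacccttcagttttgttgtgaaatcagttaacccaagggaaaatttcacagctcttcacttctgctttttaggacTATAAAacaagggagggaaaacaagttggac
Tnf: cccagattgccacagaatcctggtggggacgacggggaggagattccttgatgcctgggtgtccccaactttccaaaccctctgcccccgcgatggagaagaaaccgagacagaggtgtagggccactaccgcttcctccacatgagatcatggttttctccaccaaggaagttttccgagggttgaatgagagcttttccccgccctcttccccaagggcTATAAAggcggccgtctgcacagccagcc
Promoter entries were found for 7 of the 10 genes, with 3 start sites for Il1rn, while Osm, Il10 and Il23a had none. TATAAA was found, on either strand, in 12.4% of 32851 mouse promoter entries of this length. The AP-1 letters TGANTCA, present in 6.75% of entries, occurred 12 bases before the Il1a start, 141 bases before the start of the first Il1rn entry, 249 bases before the Il6 start and 228 bases before the Lif start. None of the 9 entries for these genes held the STAT letters TTCNNNGAA (7.02% of entries), the NF-kB letters GGGNNTTCC (4.98%) or the CRE letters TGACGTCA (1.55%). A match of letters is a description of the sequence and not a binding site. Only these exact letters and spacings were searched, so other forms of a motif, such as longer NF-kB letters, can be present.

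Il1b had the highest level per kb of exon of the 10 genes in each stimulated group except STAT5 cKO with rmGM-CSF, where Tnf did. With DMEM it stood at 6.73 and 10.4 normalized CPM in the STAT5 fl/fl libraries and at 12.4, 9.09 and 14.8 in the STAT5 cKO libraries. With rmGM-CSF it reached 923 and 1238 CPM in STAT5 fl/fl macrophages but 392, 389 and 355 CPM in STAT5 cKO macrophages. The STAT5 cKO libraries were all below the STAT5 fl/fl libraries with rmGM-CSF, and the ranges with DMEM overlapped. With so few libraries, separate ranges can arise without a difference. The share of all tested genes with separate ranges is not given, so separation is only a description, here and below. With 4T1 CM the values were 582 and 781 CPM in STAT5 fl/fl and 442, 605 and 570 CPM in STAT5 cKO macrophages, which overlapped again. The order of the 6 group means therefore ran from STAT5 fl/fl with rmGM-CSF (1080 ± 223 CPM, SD, n = 2) through STAT5 fl/fl with 4T1 CM (681 ± 141) and STAT5 cKO with 4T1 CM (539 ± 85.5, n = 3) to STAT5 cKO with rmGM-CSF (379 ± 20.3), and the DMEM groups of both genotypes were far below. Between the genotypes, neither the neighbouring 4T1 CM groups nor the DMEM groups differed beyond their spread (adjusted p = 0.191 and 0.258).

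Il1a also reached its highest level in STAT5 fl/fl macrophages with rmGM-CSF. It had 5 and 14 counts in the STAT5 fl/fl libraries and 2, 8 and 6 counts in the STAT5 cKO libraries with DMEM. With rmGM-CSF it rose to 27.5 and 33.6 CPM in STAT5 fl/fl and to 7.55, 11.0 and 9.003 CPM in STAT5 cKO macrophages. These groups did not overlap. With 4T1 CM Il1a stood at 7.004 and 7.27 CPM in STAT5 fl/fl and at 4.30, 4.96 and 5.84 CPM in STAT5 cKO macrophages. Every STAT5 cKO library was also below the STAT5 fl/fl libraries there, by a smaller margin.

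Il1rn, the antagonist gene, responded more to 4T1 CM than to rmGM-CSF. With DMEM it stood at 27.4 and 20.6 CPM in STAT5 fl/fl and at 33.3, 39.3 and 36.0 CPM in STAT5 cKO macrophages. With rmGM-CSF the values were 162 and 146 CPM against 105, 129 and 118 CPM. The STAT5 cKO libraries were thus above the controls with DMEM and below them with rmGM-CSF, without overlap in either case. With 4T1 CM the values were 557 and 379 CPM in STAT5 fl/fl and 316, 453 and 339 CPM in STAT5 cKO macrophages, and the groups overlapped.

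Tnf reached its high levels with rmGM-CSF alone. It stood at 15.6 and 17.4 CPM in STAT5 fl/fl and at 21.5, 23.3 and 26.3 CPM in STAT5 cKO macrophages with DMEM. With rmGM-CSF it reached 632 and 658 CPM in STAT5 fl/fl and 704, 716 and 729 CPM in STAT5 cKO macrophages. With 4T1 CM it was 35.6 and 29.8 CPM against 27.6, 20.2 and 31.6 CPM. STAT5 cKO libraries were above the controls with DMEM and with rmGM-CSF, and the groups overlapped with 4T1 CM.

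Osm was the only IL-6 family ligand of the list that was expressed well above the floor in every group, and it was high with 4T1 CM. With DMEM it stood at 6.91 and 7.21 CPM in STAT5 fl/fl and at 4.68, 6.18 and 6.13 CPM in STAT5 cKO macrophages. With rmGM-CSF it was 13.4 and 11.1 CPM in STAT5 fl/fl and 6.08, 6.20 and 5.04 CPM in STAT5 cKO macrophages. The STAT5 cKO values with rmGM-CSF overlapped their own DMEM values, and the STAT5 fl/fl values lay above theirs. With 4T1 CM the libraries held 51.6 and 50.5 CPM against 49.9, 54.6 and 55.7 CPM, and the genotypes overlapped.

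**Figure D1:**
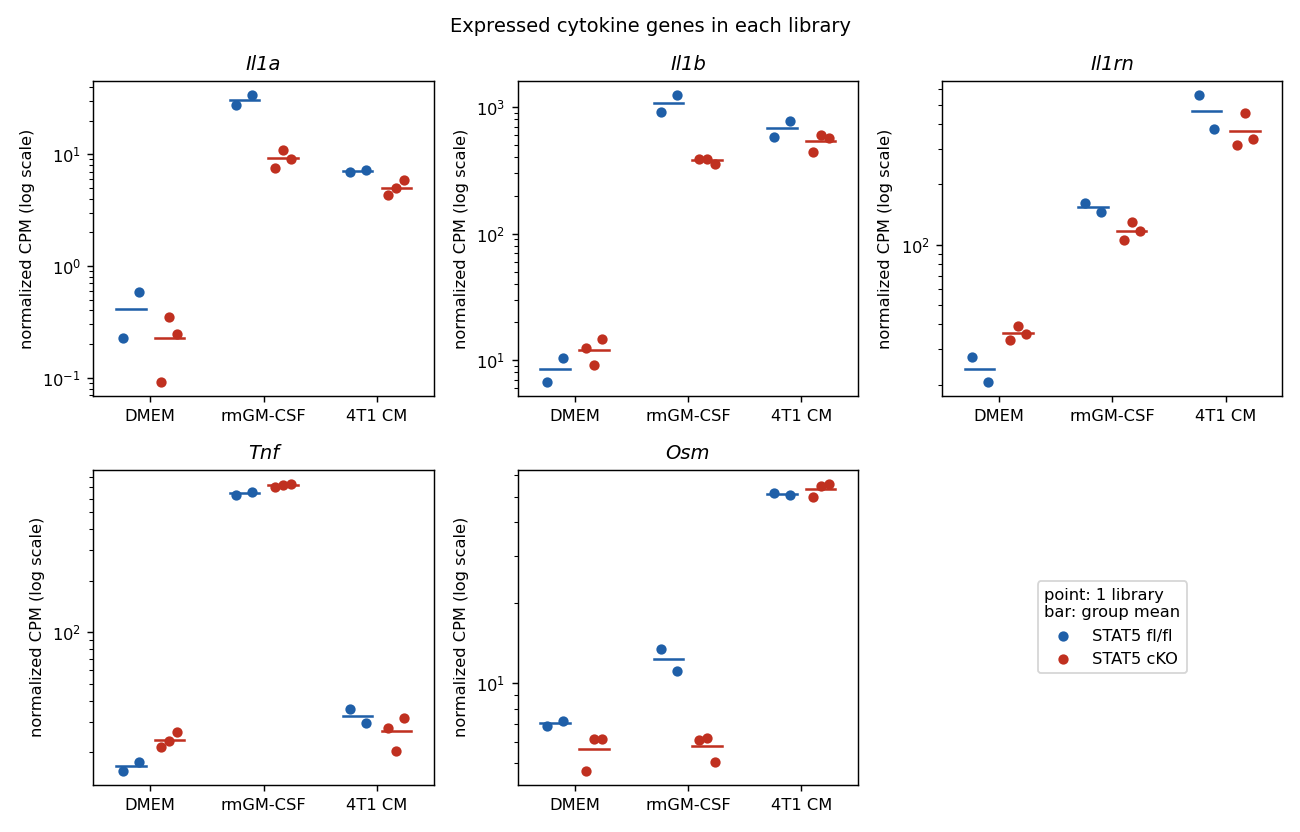
Normalized CPM (log scale, with its own range in each panel) of the 5 cytokine genes with over 1 CPM in every stimulated library, by treatment, for each STAT5 fl/fl library (blue) and STAT5 cKO library (red), with bars at the group means. With rmGM-CSF the red points lie below the blue ones for Il1a, Il1b, Il1rn and Osm and above them for Tnf. The differences of Il1rn and Tnf there were not called.

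The remaining genes were close to the floor. Il10 had 3 and 8 counts in STAT5 fl/fl and 6, 6 and 10 counts in STAT5 cKO macrophages with DMEM. With rmGM-CSF it had 0 counts in both STAT5 fl/fl libraries and 8, 8 and 4 counts in the STAT5 cKO libraries. With 4T1 CM it had 6 and 14 counts against 38, 27 and 36. The STAT5 cKO libraries were all above the STAT5 fl/fl libraries with rmGM-CSF and with 4T1 CM, and the genotypes overlapped with DMEM.

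Il6 had 0 counts in all 5 libraries with DMEM. It had 10 and 19 counts in STAT5 fl/fl and 3, 1 and 6 counts in STAT5 cKO macrophages with rmGM-CSF, and 9 and 13 against 10, 5 and 10 counts with 4T1 CM. The genotypes were separate with rmGM-CSF and overlapped with 4T1 CM. Lif had at most 2 counts in any library with DMEM. It had 1 and 0 counts in STAT5 fl/fl and 1, 5 and 5 counts in STAT5 cKO macrophages with rmGM-CSF, and 3 and 7 against 13, 15 and 9 counts with 4T1 CM. Lif was therefore above the floor in all 3 STAT5 cKO libraries with 4T1 CM, and those libraries lay above both controls, a difference that was not called in a fit without the low-count filter (1.18 ± 0.570, adjusted p = 0.291). Il12b did not exceed 7 counts in any library and Il23a did not exceed 2, and no difference in either gene was detectable at this depth.

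**Figure D2:**
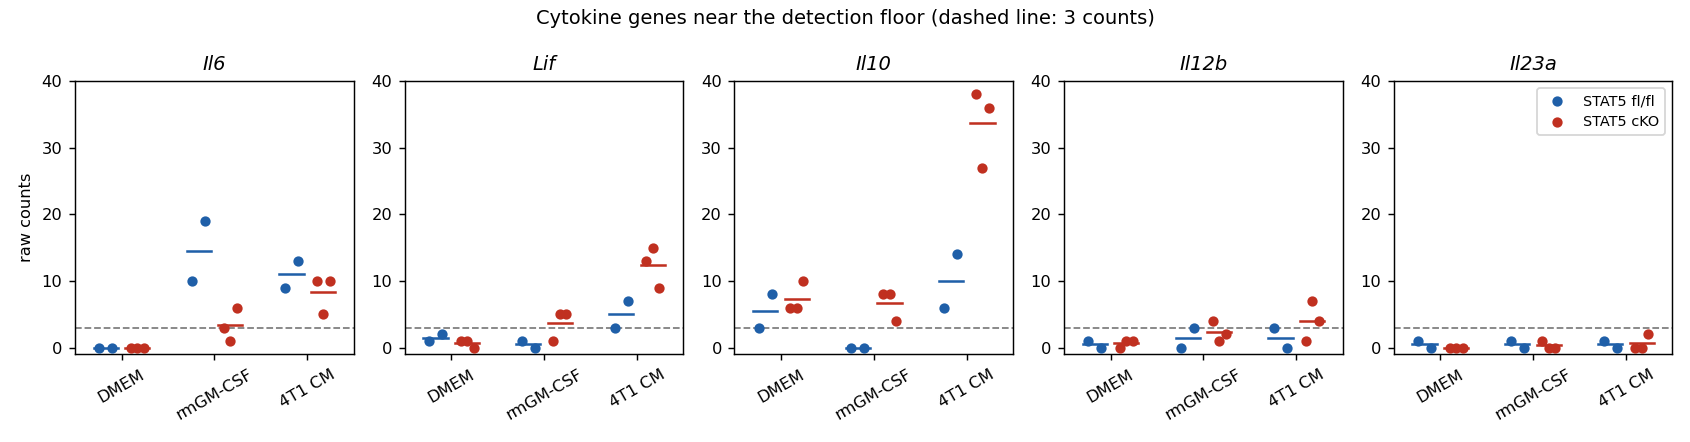
Raw counts of the 5 cytokine genes nearest the floor in each library, by treatment and genotype (blue for STAT5 fl/fl, red for STAT5 cKO), with bars at the group means and a dashed line at the floor of 3 counts. Il10 reaches 27 to 38 counts in STAT5 cKO libraries with 4T1 CM, and Il23a stays at or under 2 counts.

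The effect of STAT5 deletion was then tested within each treatment with edgeR's quasi-likelihood test. The Benjamini-Hochberg adjustment of p ran over the 13005 genes tested, a gene was called at an adjusted p under 0.01, and fold changes are log2 ± SE. With rmGM-CSF, 3 of the 6 tested cytokine genes were lower in STAT5 cKO macrophages, where 6.24% of all tested genes were called lower, and none was called higher (3.57% of all genes). Il1a was 3.32-fold lower (log2 fold change -1.73 ± 0.149, adjusted p = 2.252e-07), Il1b was 2.85-fold lower (-1.51 ± 0.164, adjusted p = 3.685e-06) and Osm was 2.097-fold lower (-1.07 ± 0.133, adjusted p = 1.88e-05). All 3 calls held under every alternative that could be fitted, the exclusion of each mouse included. The RNA is that of a whole culture, in which fewer cells expressing a gene and less RNA per cell cannot be told apart.

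Tnf did not pass the test with rmGM-CSF, and its interval allows only a small difference, the level in STAT5 cKO macrophages being 1.11 times that of the controls (95% confidence interval 0.943 to 1.31, adjusted p = 0.408). The Il1rn difference of -0.39 ± 0.160 was not called either (adjusted p = 0.111), except in a fit of these libraries alone (0.00279). Il10 was at least 1.93-fold higher in STAT5 cKO macrophages, computed against the floor because both STAT5 fl/fl libraries had 0 counts, and its adjusted p of 0.0165 did not pass the threshold. It was called with the likelihood ratio test (0.000422), the older form of the quasi-likelihood test (0.00723) and the mouse as a random effect (0.00131). For Il6, a fit without the low-count filter gave -2.25 ± 0.610 with an adjusted p of 0.0157, also short of the threshold.

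With 4T1 CM, 1 of the 6 tested cytokine genes was called higher in STAT5 cKO macrophages (4.13% of all tested genes) and none lower (3.57%). This was Il10, at 1.57 ± 0.266 CPM (SD, n = 3) against 0.507 ± 0.304 CPM (SD, n = 2), a log2 difference of 1.63 ± 0.371 (adjusted p = 0.00701). Il10 entered the test only through these STAT5 cKO libraries, so its call is no independent support for a difference. The call was lost with DESeq2 (adjusted p = 0.0406), with edgeR's older form of the quasi-likelihood test (0.0127), in a fit of these libraries alone (0.0579), and when any of the 5 mice was left out (edgeR, 0.0127 to 0.102), while the direction held in each. The log2 difference was 1.11 without mouse 112 and 2.40 without mouse 113. Osm was 1.05 times the control level (95% confidence interval 0.917 to 1.19, adjusted p = 0.688). Il1a (-0.50 ± 0.196), Il1b (-0.34 ± 0.165), Il1rn (-0.34 ± 0.154) and Tnf (-0.30 ± 0.133) were not called, with adjusted p from 0.1003 to 0.191.

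With DMEM none of the tested cytokine genes was called by edgeR's quasi-likelihood test after the low-count filter, where 0.938% of all genes were higher and 1.55% lower in STAT5 cKO macrophages, and 2824 genes had an unadjusted p under 0.05. Tnf came nearest (0.52 ± 0.142, adjusted p = 0.0362) and was called by DESeq2 (0.00226), by edgeR's likelihood ratio test (0.00543) and by the quasi-likelihood test without the filter (0.00853). Il1rn followed (0.59 ± 0.185, adjusted p = 0.0629).

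**Figure D3:**
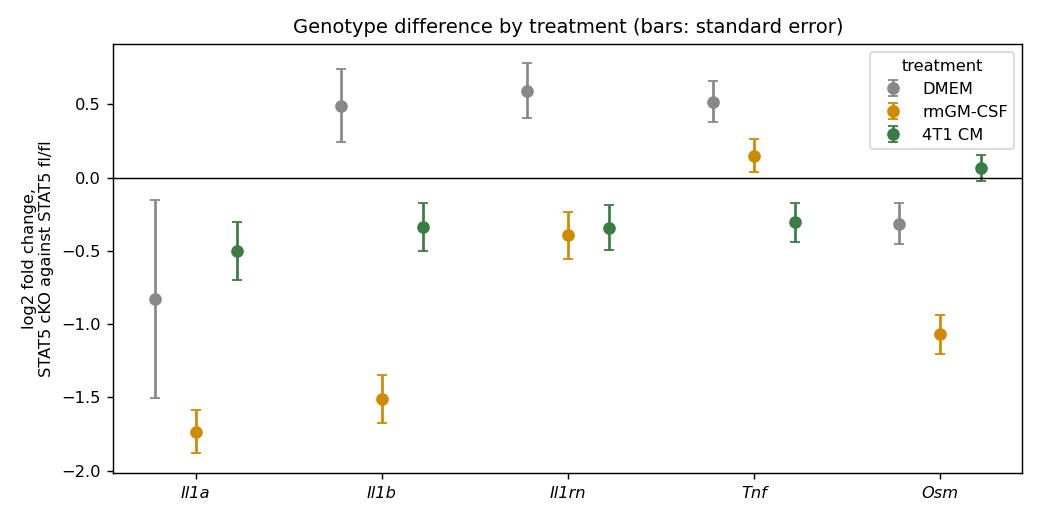
Log2 fold change of STAT5 cKO against STAT5 fl/fl macrophages (vertical axis) for 5 cytokine genes in each treatment, with bars of 1 standard error. The rmGM-CSF values of Il1a (-1.73), Il1b (-1.51) and Osm (-1.07) are the lowest of their genes, and Tnf lies above 0 with DMEM and rmGM-CSF and below 0 with 4T1 CM.

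Markers of other cells moved with the genotype as well. Of the 3 mast cell markers, Cpa3 was at 0 in every library, Fcer1a never exceeded 1 count, and Kit, a receptor also carried by progenitor cells, accounted for the sum of 15.8 to 20.1, 19.5 to 23.5 and 6.29 to 8.17 CPM in STAT5 fl/fl libraries with DMEM, rmGM-CSF and 4T1 CM, against 4.65 to 7.48, 3.77 to 6.13 and 1.18 to 4.07 CPM in STAT5 cKO libraries. Kit was called lower in STAT5 cKO macrophages in each treatment (-1.49, -1.99 and -1.66 on the log2 scale). The 3 fibroblast markers summed to 6.87 to 8.32, 3.97 to 5.17 and 4.91 to 5.21 CPM in STAT5 fl/fl libraries. In STAT5 cKO libraries they summed to 10.04 to 11.5, 5.94 to 8.19 and 6.24 to 7.38 CPM. Pdgfrb, the only fibroblast marker that entered the test, was not called between the genotypes. The part of either in the cytokine differences was not tested.

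The response to rmGM-CSF was compared within each genotype against DMEM. Il1a entered the test only through stimulated libraries, and Il10 only through STAT5 cKO libraries with 4T1 CM. Their rises in those libraries are therefore no independent support, here or in the comparisons that follow. In STAT5 fl/fl macrophages 5 of the 6 tested cytokine genes were called higher (15.9% of all tested genes) and none lower (12.6%). Il1b rose 125-fold (6.97 ± 0.252, adjusted p = 7.123e-13), Il1a 72.8-fold (6.19 ± 0.278, from 5 and 14 counts with DMEM, and 6.88 without mouse 113), Tnf 38.9-fold (5.28 ± 0.154), Il1rn 6.42-fold (2.68 ± 0.196) and Osm 1.73-fold (0.79 ± 0.139, adjusted p = 0.000219). The Osm call was lost without mouse 112 (0.62, adjusted p = 0.0354). Il6 was at least 6.25-fold higher than its DMEM libraries, which were all at 0. Il10 fell from 3 and 8 counts with DMEM to 0 in both rmGM-CSF libraries and was not called (adjusted p = 0.02235). It was called lower by the likelihood ratio test (0.002298) and with the mouse as a random effect (0.002711). These counts lie near the floor.

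In STAT5 cKO macrophages 4 of the 6 were called higher with rmGM-CSF (13.3% of all tested genes) and none lower (10.2%). Il1b rose 31.3-fold (4.97 ± 0.190), Il1a 38.8-fold (5.28 ± 0.307), Tnf 30.2-fold (4.91 ± 0.122) and Il1rn 3.24-fold (1.70 ± 0.154). Osm was at 0.04 ± 0.131 (adjusted p = 0.862). The mean of Il6 was at least 1.47-fold higher, with 2 of the 3 rmGM-CSF libraries at or under 3 counts. Il6 was not called without the low-count filter (adjusted p = 0.0275). These STAT5 cKO libraries held at most 4 counts of Stat5a or Stat5b, and Cish still rose 11.1-fold in them with rmGM-CSF (adjusted p = 3.646e-08), from 0.202 to 2.29 CPM, against 818-fold in STAT5 fl/fl macrophages.

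Whether the genotypes responded differently was tested as an interaction. For rmGM-CSF against DMEM, 1 of the 6 cytokine genes was called (3.11% of all tested genes), which was Il1b, whose increase in STAT5 cKO macrophages was 4.01-fold smaller (-2.004 ± 0.296, adjusted p = 0.000345) and remained called in each alternative. Il1rn (-0.99 ± 0.245, adjusted p = 0.0237) and Osm (-0.75 ± 0.191, adjusted p = 0.0270) were not called. With the mouse as a replicate block, Il1rn was called too (-1.001, adjusted p = 3.175e-05), and Osm was not (adjusted p = 0.0184). The Il1a interaction of -0.91 ± 0.728 could not be resolved at its DMEM counts. That of Il10 was not called either (adjusted p = 0.1355), with 0 counts in both STAT5 fl/fl libraries with rmGM-CSF.

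With 4T1 CM against DMEM, 5 of the 6 tested cytokine genes were called higher in STAT5 fl/fl macrophages (19.2% of all tested genes) and none lower (18.2%). Il1b rose 79.1-fold (6.31 ± 0.247), Il1rn 19.5-fold (4.29 ± 0.203), Il1a 17.0-fold (4.08 ± 0.352, and 4.91 without mouse 113), Osm 7.22-fold (2.85 ± 0.120) and Tnf 1.98-fold (0.98 ± 0.152, adjusted p = 4.101e-05). The Tnf call was lost without mouse 112 (0.77, adjusted p = 0.0161). In their means, Il6 was at least 4.22-fold and Lif at least 1.93-fold above DMEM, with 1 of the 2 4T1 CM libraries at or under the floor for Lif. In a fit without the low-count filter Il6 was called (adjusted p = 0.000602) and Lif was not (0.214).

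In STAT5 cKO macrophages 5 of the 6 were called higher with 4T1 CM as well (19.3% of all tested genes) and none lower (18.4%). This count includes Il1a and Il10, which passed the filter only through libraries in which they were high. Il1b rose 44.5-fold (5.48 ± 0.192), Il1a 21.2-fold (4.41 ± 0.345), Il1rn 10.2-fold (3.35 ± 0.158), Osm 9.39-fold (3.23 ± 0.101) and Il10 4.85-fold (2.28 ± 0.346). Tnf was at 0.16 ± 0.121 (adjusted p = 0.299). Il6 was at least 2.96-fold and Lif at least 4.42-fold above DMEM, and both were called without the low-count filter (adjusted p = 0.000341 and 4.461e-05).

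No cytokine gene was called in the interaction of genotype with 4T1 CM against DMEM by edgeR's quasi-likelihood test after the low-count filter (1.27% of all tested genes), and 1865 genes had an unadjusted p under 0.05. Tnf (-0.82 ± 0.194, adjusted p = 0.0255) and Il1rn (-0.94 ± 0.241, adjusted p = 0.0413) came nearest. With the mouse as a replicate block both were called (Tnf -0.83, adjusted p = 0.00621, and Il1rn -0.94, adjusted p = 0.0001704). Both were also called without the filter (0.00289 and 0.00343) and by the likelihood ratio test (0.00135 and 0.00429), and DESeq2 called Tnf alone (0.000322). The responses to rmGM-CSF and to 4T1 CM share their DMEM libraries.

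Single genes from the marker lists of other cells moved with treatment too. The dendritic cell list summed to 0.506 to 1.0004 CPM with DMEM, 1.72 to 3.86 CPM with rmGM-CSF and 0.632 to 1.37 CPM with 4T1 CM over both genotypes. Its gene Zbtb46 was called 5.08-fold higher with rmGM-CSF in STAT5 fl/fl and 3.64-fold higher in STAT5 cKO macrophages. Zbtb46 made up most of these sums, since Flt3 never exceeded 4 counts and Xcr1 never exceeded 1. Flt3 had 0 counts in both STAT5 fl/fl libraries with rmGM-CSF. Kit was called 2.48-fold and 2.80-fold lower with 4T1 CM, and the fibroblast marker Pdgfrb 1.68-fold and 1.62-fold lower with rmGM-CSF, in STAT5 fl/fl and STAT5 cKO macrophages respectively. Pdgfrb was also called 1.69-fold lower with 4T1 CM in STAT5 cKO macrophages. The other fibroblast markers, Dcn and Pdgfra, had at most 12 and 8 counts in any library and did not reach the filter. With rmGM-CSF the mean of Dcn rose in STAT5 fl/fl (0.107 to 0.147 CPM) and in STAT5 cKO macrophages (0.220 to 0.366 CPM). That of Pdgfra fell in STAT5 fl/fl (0.130 to 0.0268 CPM) and rose in STAT5 cKO macrophages (0.187 to 0.267 CPM). In STAT5 cKO macrophages S100a8, of the neutrophil list, was called 3.88-fold higher with 4T1 CM, where that list summed to 0.851 to 2.36 CPM. The other genes of that list, S100a9, Ly6g, Mpo and Elane, never exceeded 3 counts in any library. The part of these markers in the cytokine responses was not tested.

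**Figure D4:**
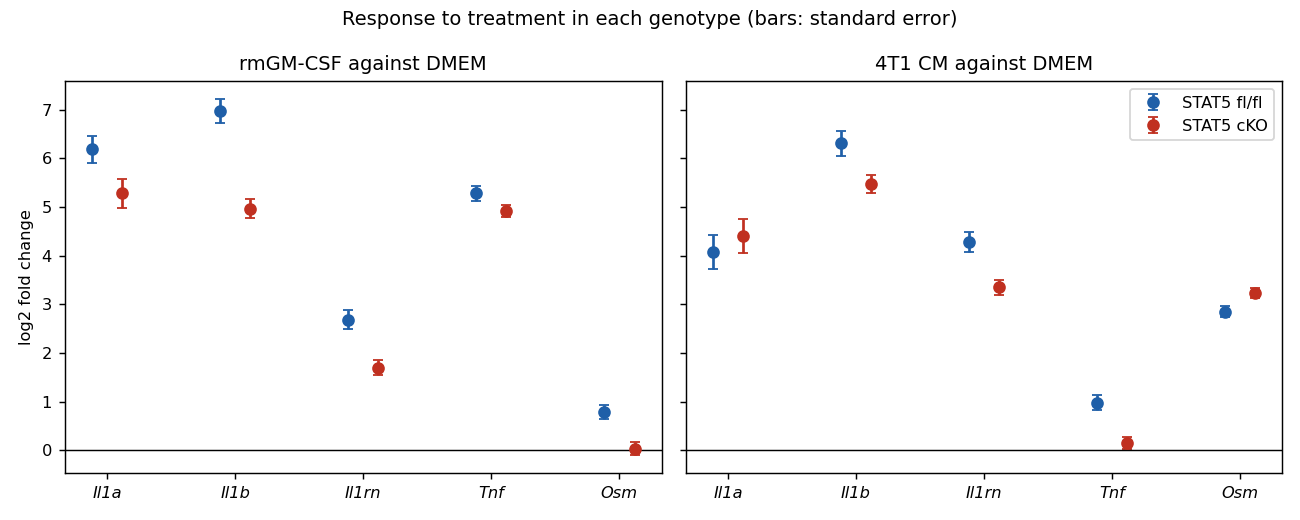
Log2 fold change against DMEM (vertical axis) for 5 cytokine genes with rmGM-CSF (left) and 4T1 CM (right) in macrophages of both genotypes (blue, STAT5 fl/fl, and red, STAT5 cKO), with bars of 1 standard error. With rmGM-CSF, Il1b stands at 6.97 and 4.97 and Tnf at 5.28 and 4.91, and with 4T1 CM Tnf stands at 0.98 and 0.16.

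The stimuli were also compared with each other. In STAT5 fl/fl macrophages 3 of the 6 tested cytokine genes were called higher with 4T1 CM than with rmGM-CSF (13.8% of all tested genes) and 3 lower (16.7%). Osm was 4.18-fold (2.06 ± 0.116) and Il1rn 3.04-fold higher (1.603 ± 0.177), and Il10 was at least 2.92-fold higher, a call that was lost without mouse 113 (adjusted p = 0.0935). Tnf was 19.7-fold lower (-4.30 ± 0.145), Il1a 4.29-fold lower (-2.10 ± 0.174) and Il1b 1.59-fold lower (-0.66 ± 0.182, adjusted p = 0.00717). The Il1b call was lost with DESeq2 (adjusted p = 0.0382) and without either mouse 112 (0.0291) or mouse 113 (0.0409).

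In STAT5 cKO macrophages 4 of the 6 were called higher with 4T1 CM than with rmGM-CSF (16.6% of all tested genes) and 2 lower (17.5%). Osm was 9.16-fold (3.20 ± 0.103), Il10 4.52-fold (2.18 ± 0.358) and Il1rn 3.14-fold higher (1.65 ± 0.145). The Il10 call comes from the 4T1 CM libraries that alone brought this gene through the filter. Tnf was 27.0-fold lower (-4.76 ± 0.121) and Il1a 1.83-fold lower (-0.87 ± 0.1696, adjusted p = 0.000457), the latter not called without mouse 115 (adjusted p = 0.0147). Il1b, lower with 4T1 CM in the controls, was 1.42-fold higher here (0.51 ± 0.149), at an adjusted p of 0.00999 that was lost with DESeq2 (0.0507), with edgeR's filterByExpr (0.0101), with the older quasi-likelihood form (0.0119) and without mouse 115 (0.0555) or mouse 116 (0.0818).

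The difference between the genotypes was larger with rmGM-CSF than with 4T1 CM for 3 of the 6 tested cytokine genes (interaction, 1.47% of all tested genes). Osm (1.13 ± 0.161, adjusted p = 0.000366), Il1b (1.17 ± 0.236, adjusted p = 0.00846) and Il1a (1.23 ± 0.247, adjusted p = 0.00858) were all called. Without mouse 112 none of these was called (Osm 1.01, adjusted p = 0.0270), and without mouse 113 or 116 Osm alone was. Without mouse 114 Il1a was not called (adjusted p = 0.0156), and without mouse 115 Il1b was not (0.0222). Il1a was also lost in a fit of these libraries alone (0.0133), Il1b with DESeq2 (0.0278), and both with the older quasi-likelihood form (0.0155 and 0.0110). The log2 values of the interaction stayed between 1.01 and 1.41 for these genes in every fit.

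Because the counts of one gene relative to another do not depend on library scaling, ratios of CPM per kb of exon were taken within each library. They are descriptions and no test was run on them. Il1b exceeded its antagonist gene Il1rn 16.5-fold and 24.6-fold in the STAT5 fl/fl libraries with rmGM-CSF, and 10.8-fold, 8.73-fold and 8.77-fold in the STAT5 cKO libraries. The genotypes did not overlap in this ratio with rmGM-CSF. With 4T1 CM it was 3.03 and 5.99 against 4.07, 3.88 and 4.89, and with DMEM it was 0.712 and 1.46 against 1.08, 0.672 and 1.19, so both treatments gave overlapping genotypes.

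The ratio of Tnf to Il1b was lowest with 4T1 CM. It was 0.797 and 0.619 in STAT5 fl/fl and 2.09, 2.14 and 2.39 in STAT5 cKO libraries with rmGM-CSF, without overlap. With 4T1 CM it lay between 0.0389 and 0.0725 over both genotypes, and with DMEM between 1.95 and 2.98, a range that includes the STAT5 cKO libraries with rmGM-CSF. Tnf RNA was thus above Il1b RNA per kb in every DMEM library and in the STAT5 cKO libraries with rmGM-CSF, and below it in all others. The exon length of Il1rn, 5535 bases, sums exons of all its annotated transcripts, which lowers its level per kb in every library alike.

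**Figure D5:**
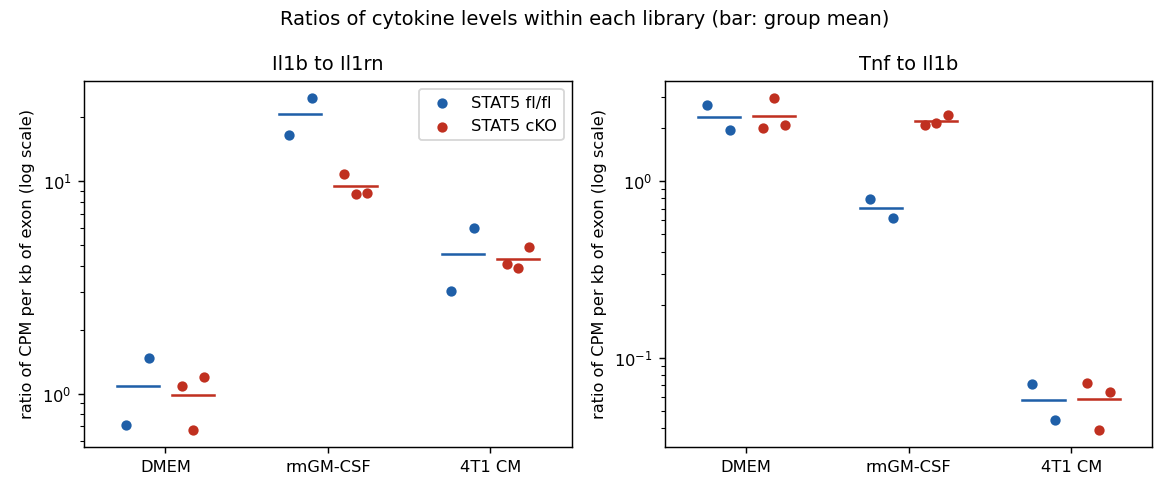
Ratio of CPM per kb of exon (log scale) of Il1b to Il1rn (left) and of Tnf to Il1b (right) within each library, by treatment and genotype (blue for STAT5 fl/fl, red for STAT5 cKO), with bars at the group means. With rmGM-CSF the mean ratio of Il1b to Il1rn is 20.6 in STAT5 fl/fl and 9.44 in STAT5 cKO libraries, and that of Tnf to Il1b is 0.708 and 2.21.

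The genes whose log2 CPM followed each cytokine most closely were listed by Pearson correlation over the 15 libraries, as a description in which the correlation mostly reflects the 3 treatments. Il1b was followed by Socs3 (r = 0.995), Ppp1r18 (0.992) and Spred1 (0.989), and Osm by Arid5a (0.997), Arnt (0.985) and Foxo1 (0.985). For Tnf these were Tent4a, Slc31a2 and Cd69 (each 0.991), for Il1rn Ccr1 (0.986), Vim (0.983) and Clic1 (0.983), and for Il1a Rgl1 (0.983), N4bp1 (0.982) and Pi4k2a (0.981). Il10 had the weakest likeness, to Prune1 (0.949), Rab19 (0.929) and Slc35a1 (0.929).

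The receptors, processing enzymes and signalling proteins that serve these cytokines were taken as a list of 55 genes, of which 44 entered the test. With rmGM-CSF, 3 of the 44 were called higher (3.57% of all tested genes) and 8 lower (6.24%) in STAT5 cKO macrophages, with a median log2 difference of -0.05 against 0.00 over all tested genes. With 4T1 CM, 6 were called higher (4.13%) and 1 lower (3.57%, median 0.02 against 0.01), and with DMEM 0 were higher (0.938%) and 1 lower (1.55%, median 0.05 against 0.00), the last being the IL-6 receptor gene Il6ra (-0.24).

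Among IL-1 receptors and signalling proteins, Il1r1, the signalling receptor of IL-1, was higher in STAT5 cKO macrophages with rmGM-CSF (5.49 ± 0.585 CPM, SD, n = 3, against 1.65 ± 0.314, n = 2, log2 difference 1.72 ± 0.254) and with 4T1 CM (27.5 ± 3.11 against 16.4 ± 4.06 CPM, 0.74 ± 0.130). Il1r2, the decoy receptor, was higher with 4T1 CM (20.2 ± 1.28 against 12.2 ± 1.21 CPM). Irak3, an inhibitor of IL-1 receptor signalling, was higher with rmGM-CSF (0.42). Traf6, the ubiquitin ligase that carries the IL-1 signal to NF-kB, was lower with rmGM-CSF (82.2 ± 1.56 against 156 ± 6.38 CPM, -0.92 ± 0.065) and with 4T1 CM (-0.58). With rmGM-CSF, Il1r1 thus moved in the opposite direction to its ligand genes Il1a and Il1b.

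Of the other IL-1 family ligands, binding proteins and processing genes, 2 of the 7 tested were lower in STAT5 cKO macrophages with rmGM-CSF (6.24% of all tested genes). These were Casp1, which cleaves pro-IL-1β (150 ± 4.53 against 195 ± 14.9 CPM, -0.38 ± 0.070), and Casp4, the cytosolic sensor of lipopolysaccharide (-0.62). Nlrp3, the inflammasome sensor, was not called between the genotypes in any treatment and rose with rmGM-CSF in both (3.45 ± 0.091 in STAT5 fl/fl and 3.21 ± 0.073 in STAT5 cKO macrophages).

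Of the TNF group, Tnfrsf1b, the TNF receptor TNFR2, was higher in STAT5 cKO macrophages with rmGM-CSF (1399 ± 75.8 against 921 ± 67.7 CPM, 0.60 ± 0.072) and with 4T1 CM (0.34). Adam17, the TNF sheddase, and Birc3, an inhibitor of apoptosis in the TNF receptor complex, were higher with 4T1 CM (0.44 and 0.43), and Rhbdf2, which carries ADAM17 to the cell surface, was lower with rmGM-CSF (-0.36).

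For the IL-6 family, 3 of the 9 tested receptor and signalling genes were lower in STAT5 cKO macrophages with rmGM-CSF (6.24% of all tested genes) and none was called with 4T1 CM. They were Lifr, the LIF receptor subunit (9.44 ± 0.671 against 17.2 ± 0.757 CPM, -0.86 ± 0.161), the kinase gene Jak2 (-0.31) and Stat3 (-0.26). Il6st, which encodes gp130, was not called between the genotypes in any treatment. Of the other ligands, Clcf1, a cytokine that signals through gp130, was higher in STAT5 cKO macrophages with 4T1 CM (5.20 ± 1.17 against 1.51 ± 0.204 CPM, 1.79 ± 0.246, adjusted p = 8.555e-05). For the IL-10 receptor, Il10rb was lower with rmGM-CSF (-0.24).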

How the data were processed

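RNA-seq counts of 15 libraries were analysed, from BMDMs of 3 STAT5 cKO mice and 2 STAT5 fl/fl controls. The authors trimmed the reads with Trimmomatic 0.33, aligned them to GRCm38 with HISAT2 2.1.0 and counted fragments per Ensembl gene with featureCounts 1.6.2, in a strand-specific way, from read pairs whose ends were both aligned with a quality score of 10 or more. The deposited values are these raw counts, without normalization, and other deposited columns hold each gene's position and summed exon length in bases. A symbol was matched to 55144 of the 55385 genes, and to all of the genes listed here. Libraries of a further treatment named in the header are not analysed here.

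Counts were tested in R 4.3.3 with edgeR 4.0.16, by the two-sided quasi-likelihood F test in a model of 6 groups over all libraries. The filter (CPM over 1 in at least 2 libraries, 13005 genes kept), the relative log expression (RLE) normalization (factors 0.945 to 1.08) and the threshold of 0.01 on the Benjamini-Hochberg adjusted p follow the study's methods, which do not state the test. Normalized CPM are counts scaled to a common library total after multiplying each total by its factor. The SE of a log2 fold change is its size divided by the square root of F, and 95% intervals use the t quantile of the test's degrees of freedom. A fold against a group whose libraries were all at or under 3 counts was computed against that floor, per library. It is a lower bound on the ratio of the group means, and not on that of single libraries. P-values measure the spread between the libraries of a group, each from a different mouse, pooled over the groups. The main model treats libraries of the same mouse as independent, and the mice were few. The steps were run on simulated counts, only for the genotype comparison with rmGM-CSF and its interaction with DMEM. These counts had no mouse effect, the same spread in every group, and changes only in genes with a mean of 1 CPM or more. They therefore do not bear on related libraries of a mouse, unequal spread or genes near the floor.

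The genes and lists were chosen with earlier results of these data known. The genes named are the 10 cytokine genes, Stat5a, Stat5b and Cish, per role up to 4 pathway genes with the smallest adjusted p among those called between the genotypes with rmGM-CSF or 4T1 CM, and the 3 genes most correlated with each tested cytokine. Il6ra, Nlrp3, Il6st and the markers were named outside this rule after their values were seen.

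Each mouse number in the labels goes with 1 genotype and recurs once per treatment, and was taken as the mouse. Libraries of the same mouse correlated in their deviations from the group means (r 0.0548 to 0.214 over 15 pairs). The deviations of mice 112 and 113 mirror each other, so their pairs give the same values and are not separate evidence. The alternatives were TMM normalization, no filter and filterByExpr, the likelihood ratio test, DESeq2 1.42.0, only the libraries compared, an adjusted p of 0.05, limma 3.58.1 voom with mice as random effects, the mouse as a replicate block, and the exclusion of each mouse. The older form of the quasi-likelihood test was added after the data were seen.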

Additional observations from a re-analysis of the deposited data

Results flagged for a closer look

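The effect of STAT5 deletion differed between treatments for 3 of the 6 tested cytokine genes by a test of the difference itself, an interaction term in edgeR. Of all tested genes, 3.11% were called for rmGM-CSF against DMEM and 1.47% for 4T1 CM against rmGM-CSF. For Il1b the genotype difference with rmGM-CSF was lower than that with DMEM by a log2 value of -2.004 ± 0.296 (adjusted p = 0.000345). The genotype difference was higher with 4T1 CM than with rmGM-CSF by 1.23 ± 0.247 for Il1a (adjusted p = 0.00858), by 1.17 ± 0.236 for Il1b (adjusted p = 0.00846) and by 1.13 ± 0.161 for Osm (adjusted p = 0.000366). As given above, the Il1a and Il1b calls of 4T1 CM against rmGM-CSF were lost in several alternatives, and the Osm call without mouse 112. These comparisons share the rmGM-CSF libraries. No group had the 4 libraries needed to test for a library far from the others.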

How the results depend on the processing

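The 3 calls between the genotypes with rmGM-CSF (Il1a, Il1b and Osm) held in each alternative run, and Il10 was gained at an adjusted p of 0.05, with the likelihood ratio test, the older quasi-likelihood form and the mouse as a random effect, and Il1rn with only the libraries compared. With 4T1 CM the count of called cytokine genes fell from 1 to 0 with DESeq2, the older quasi-likelihood form, only the libraries compared, and the exclusion of each mouse (0 to 0). With DMEM it rose from 0 to 1 at an adjusted p of 0.05, without the filter, with the likelihood ratio test and with DESeq2. For the interaction of rmGM-CSF against DMEM the count rose from 1 to 3 at an adjusted p of 0.05 and with the likelihood ratio test, and to 2 without the filter, with DESeq2, with only the libraries compared and with the replicate block. For 4T1 CM against DMEM it rose from 0 to 2 at 0.05, without the filter, with the likelihood ratio test and with the replicate block, and to 1 with DESeq2. For 4T1 CM against rmGM-CSF it fell from 3 to 1 with the older form and to between 0 and 2 when a mouse was left out. Calls over all tested genes moved too. Between the genotypes with 4T1 CM they went from 1001 to 1231 with DESeq2, 968 with the older form and 280 with only the libraries compared. With DMEM they rose from 324 to 910 at 0.05, 453 without the filter, 608 with the likelihood ratio test and 557 with DESeq2. For the interactions, in the order above, they went from 404 to 622 and from 165 to 423 at 0.05, and from 191 to 186 with the older form. The cause of these changes was not tested. Leaving out a mouse also left fewer libraries. For mouse 112 or 113 it left 1 STAT5 fl/fl library per treatment, assumed to vary like the others.

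Leaving out a mouse turned the sign in 6 results, none of them called. Their ranges were -0.079 to 1.19 for Il10 and -1.33 to 0.027 for Il1a between the genotypes with DMEM, -0.10 to 0.47 for Il10 and -0.11 to 0.17 for Osm with rmGM-CSF against DMEM in STAT5 cKO macrophages, -0.50 to 0.80 for Il1a in the interaction of 4T1 CM against DMEM, and -0.13 to 0.28 for Il1rn in that of 4T1 CM against rmGM-CSF. Over all single genes and alternatives, 984 values kept their direction and side of the threshold, 33 lost a call, 29 gained one and 8 turned sign. The replicate block changed no other call than those given, and could not be fitted between the genotypes within a treatment, whose mice differ. Differences in Il12b and Il23a lay under the depth of these libraries.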
